A study of Mus musculus with 105 samples.

Results

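MicroRNAs encoded inside the 4 mouse Hox clusters were followed through every small-RNA table of a 5-ethynyluridine (5EU) labelling series: mmu-miR-10a-5p, mmu-miR-10b-5p, mmu-miR-196a-5p, mmu-miR-196b-5p and mmu-miR-615-3p, written without the prefix below. They were taken by name and are 5 of the 1013 miRNAs counted. 3 wild-type cell lines were studied: CIMEF and DMEF, which are contact-inhibited and dividing mouse embryonic fibroblasts labelled C57BL/6J, and ESC, the v6.5 embryonic stem cell line labelled C57BL/6. All were used at passages 5 to 15. CIMEF had been held at contact inhibition for 5 days before labelling. 5EU, a uridine analogue that enters new transcripts, was given at 400 µM to fibroblasts and 125 µM to ESC, and the small-RNA cultures received it for the times given, with 0 h as the unlabelled time. No labelling time is given for the mRNA samples. EU libraries hold the small RNA pulled down through the label, and Input libraries hold small RNA taken without the pulldown. Each line was followed in 2 time courses, CIMEF to 1 week, DMEF to 72 h and ESC to 24 h. The fourth group, called the knockout here, is a CIMEF culture that lacks the long noncoding RNA Cyrano, in 1 course from 2 h to 1 week. No mRNA library of it was used, so loss of Cyrano was not checked, and the genotype cannot be told apart from the culture that carried it.

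Hox clusters hold genes for transcription factors that pattern the body axis, and embryonic fibroblasts keep the Hox pattern of the place they came from. miR-10 and miR-196 genes lie between Hox genes and are commonly transcribed with them. miR-196 represses Hoxb8 and other Hox mRNAs, with Hoxb8 known for being cut at a nearly complementary site, and miR-10 has been described to repress Hoxa3, Hoxb3 and Hoxd10. A miRNA hairpin yields 2 strands, of which the guide is loaded into Argonaute and the other, here called the other strand, is usually lost soon after.

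The mature sequences are given because both pairs of paralogs share a seed and differ at 1 base, which bears on how they can be counted and compared. The seed, bases 2 to 8, is in capitals (RefSeq, GRCm38.p6).
miR-10a-5p: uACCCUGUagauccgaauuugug
miR-10b-5p: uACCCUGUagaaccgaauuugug
miR-196a-5p: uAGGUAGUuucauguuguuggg
miR-196b-5p: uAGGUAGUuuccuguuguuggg
miR-615-3p: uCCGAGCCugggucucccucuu
miR-10b-3p: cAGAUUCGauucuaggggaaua
miR-196b-3p: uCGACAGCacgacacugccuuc

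Counted from 1 at the 5′ end, the substitution from miR-10a-5p to miR-10b-5p is U12A, and that from miR-196a-5p to miR-196b-5p is A12C. Among the 831 miRNAs of the table with a RefSeq sequence, each of those seeds is held by 2 miRNAs, its own pair, and the seed of miR-615-3p by 1. The label enters at uridines, and the sequences hold 8 in miR-10a-5p, 7 in miR-10b-5p, 10 in each miR-196 guide, 7 in miR-615-3p, 6 in miR-10b-3p and 4 in miR-196b-3p, beside a median of 6 over those 831. Levels are given as CPM, the miRNA's count scaled to a library total of 1000000 miRNA counts. These are read counts of molecules of nearly equal length, and unequal ligation of different sequences was not corrected.

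Each of the 4 clusters holds at least 1 of the hairpins (GRCm38.p6). Mir196b lies in the HoxA cluster on the minus strand, chr6:52230081-52230165, between Hoxa9 and Hoxa10. Mir196a-1 and Mir10a lie in the HoxB cluster on the plus strand. Mir196a-1 spans chr11:96265164-96265265, between Hoxb13 and Hoxb9, and Mir10a spans chr11:96317165-96317274, inside the annotated span of Hoxb3 and between Hoxb5 and Hoxb4. Mir196a-2 and Mir615 lie in the HoxC cluster on the plus strand. Mir196a-2 spans chr15:102973350-102973434, between Hoxc10 and Hoxc9, and Mir615 spans chr15:103014910-103015001, inside the span of Hoxc5 and between Hoxc6 and Hoxc4. Mir10b lies in the HoxD cluster on the plus strand, chr2:74726070-74726137, inside the spans of Hoxd3 and Hoxd4. miR-196a-5p is thus the product of hairpins in 2 clusters, and the other 4 members have 1 hairpin each.

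The 47 Input libraries held 912688 to 9117300 miRNA counts, the 47 EU libraries 1196 to 2463188 and the 6 mRNA libraries 23030907 to 34093791 gene counts. No 2 small-RNA libraries had identical counts. Sequencing standards were counted at very different levels in the courses of a line, so values per standard are compared within a course. Fibroblast markers summed to 12240 to 23860 CPM in the fibroblast mRNA libraries and 272.6 to 338.1 in ESC, and stem cell markers to 19.5 to 29.5 and 3442 to 3568. Epithelial markers summed to 1202 to 1216 CPM in ESC, skeletal muscle markers to 52.1 to 59.7 in DMEF and 2.35 to 2.78 in CIMEF, and Myod1 and Myog were at 0 in both fibroblast lines. Neural markers summed to 278.8 to 522.7 CPM in fibroblasts, with Sox10 at 0, and 96.99 to 98.26 in ESC. The part of other cells in the results below was not tested.

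miR-196b-5p, from HoxA, was the most abundant of the 5 in fibroblasts and near the bottom of the range in ESC. Its Input level ran from 3468 to 4586 CPM in CIMEF course 1 (median 4188) and from 3287 to 4044 in course 2 (median 3896). In DMEF it ran from 2591 to 2991 CPM (median 2728) and from 2249 to 2553 (median 2360). In ESC it ran from 9.00 to 17.6 CPM (median 10.1) and from 13.6 to 17.8 (median 15.2), so that no ESC library came near any fibroblast library. Averaged over the courses of a line, the level was 3943 ± 242 CPM in CIMEF, 2550 ± 262 in DMEF and 13.9 ± 2.23 in ESC (SD, n = 2 courses). The order was CIMEF, DMEF, ESC, and the first 2 did not overlap in any library, although the test of their difference missed the threshold. Libraries of a course are not independent replicates. The share of all miRNAs whose libraries separated in these ways was not counted, so how unusual this is cannot be said.

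miR-10b-5p, from HoxD, was highest in CIMEF, while DMEF and ESC were not separated. The Input libraries ran from 749.4 to 1007 CPM (median 831.8) in CIMEF course 1 and from 527 to 676.8 (median 662.2) in course 2. DMEF gave 260.7 to 296 CPM (median 273.6) and 128 to 165.3 (median 142.8). ESC gave 81.1 to 109.6 CPM (median 100.7) and 209.3 to 266.1 (median 232.8), so the ESC courses lay on both sides of DMEF course 2. The means were 746.5 ± 150.1 CPM in CIMEF, 208.2 ± 90.1 in DMEF and 164.5 ± 96.6 in ESC (SD, n = 2 courses), and DMEF and ESC did not differ beyond their spread.

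miR-196a-5p, from HoxB and HoxC, had the opposite pattern to its paralog. ESC libraries held 266 to 376.6 CPM (median 347) in course 1 and 815.9 to 949.6 (median 850.3) in course 2. DMEF held 73.0 to 109 CPM (median 79.6) in course 1 but 0.798 to 7.55 (median 4.99) in course 2. CIMEF held 5.16 to 12.4 CPM (median 9.58) and 0.281 to 11.7 (median 2.18), where the 24 h library of course 2 alone, with 56 counts, gave the top value. ESC was therefore above every fibroblast library of the wild type, at 606.2 ± 377.3 CPM beside 41.3 ± 52.0 in DMEF and 6.43 ± 3.53 in CIMEF (SD, n = 2 courses). The share of all miRNAs that separated in this way was not counted, and the test of ESC against DMEF was not called (edgeR adjusted p = 0.0865). The DMEF spread exceeded its mean, so the neighbours DMEF and CIMEF did not differ beyond it.

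The remaining HoxB and HoxC members, miR-10a-5p and miR-615-3p, were low in all wild-type libraries and split the courses of a line. miR-10a-5p ran from 80.8 to 106.5 CPM (median 92.2) in DMEF course 1 and from 0 to 2.395 (median 1.99) in course 2. In CIMEF it ran from 3.51 to 14.8 CPM (median 11.8) and from 0 to 0.650 (median 0.505), and in ESC from 33.2 to 42.3 (median 35.7) and from 9.79 to 15.3 (median 12.2). miR-615-3p ran from 49.3 to 81.8 CPM (median 66.1) in DMEF course 1 and from 0 to 1.71 (median 0.834) in course 2. It ran from 2.08 to 8.93 CPM (median 6.55) in CIMEF course 1 and had 1 count in 29449080 over CIMEF course 2, and ESC gave 10.0 to 20.6 (median 17.6) and 42.0 to 57.6 (median 48.2). For both miRNAs the highest and the lowest levels of dividing fibroblasts thus bracketed those of stem cells, and lines could not be ordered beyond their spread.

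**Figure D1:**
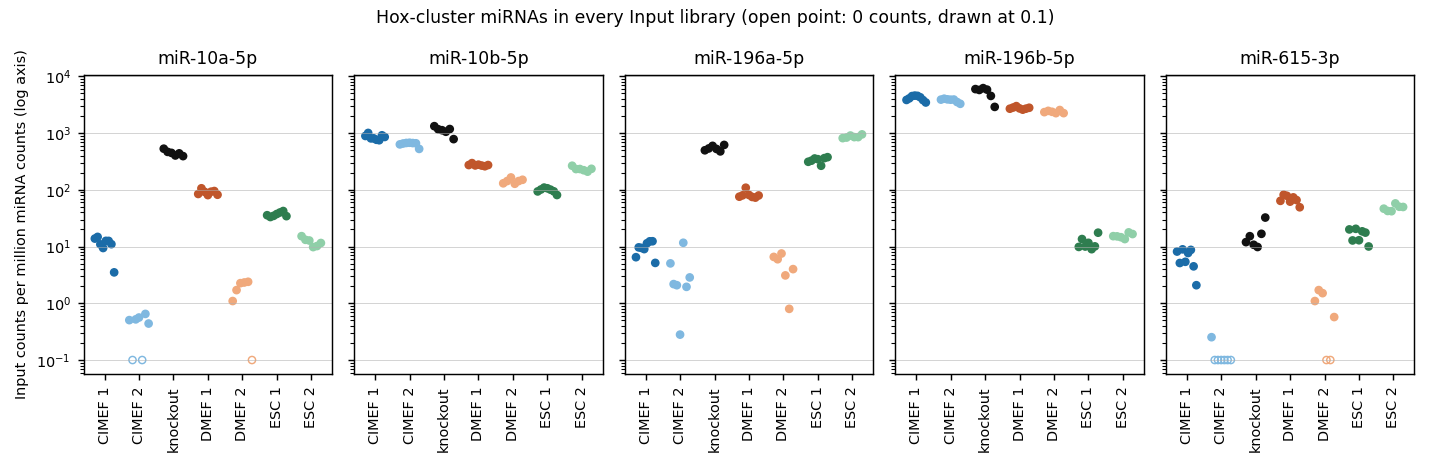
Input level of each miRNA in every library, in CPM on a log axis, by line and course and in order of labelling time within a course; open points are libraries with 0 counts, drawn at 0.1. In fibroblasts and the knockout miR-196b-5p runs from 2249 to 6210 CPM and miR-10b-5p from 128 to 1326, whereas miR-10a-5p, miR-196a-5p and miR-615-3p differ between the courses of DMEF and rise to the top of the fibroblast range in the knockout, except miR-615-3p, which is higher in DMEF course 1.

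Between lines, Input counts summed per course were tested with edgeR's quasi-likelihood test, adjusted over all 812 miRNAs tested and called under 0.05. The median log2 difference over all miRNAs was 0.43 in ESC minus CIMEF and 0.52 in ESC minus DMEF. In ESC minus CIMEF, 3 of the 5 were called, 1 higher and 2 lower, where 56.5% of all miRNAs were called (27.3% higher, 29.2% lower). miR-196b-5p was lower by a log2 difference of -8.82 (SE 0.45, edgeR adjusted p = 1.3e-04) and miR-10b-5p by -2.86 (SE 0.66, edgeR adjusted p = 0.013). miR-196a-5p was higher by 5.88 (SE 1.57, edgeR adjusted p = 0.0214). In ESC minus DMEF, 1 of 5 was called, against 47.8% of all miRNAs (25% lower): miR-196b-5p, at -7.76 (SE 0.43, edgeR adjusted p = 2.0e-04). miR-196a-5p had a log2 difference of 3.54 there (SE 1.40) and an edgeR adjusted p of 0.0865, which fell under the threshold without DMEF course 1 (6.93, adjusted p = 0.0244), without CIMEF course 1 or 2 (3.55 in both) and with DESeq2 (3.66, adjusted p = 0.0122). Scaled to the standards in place of TMM, 0 members were called in either comparison and miR-196a-5p turned to -2.18 against CIMEF (adjusted p = 0.654) and -4.32 against DMEF (adjusted p = 0.429), but standards differed widely between the courses of a line and no direction is read from this scaling. The call of miR-196a-5p against CIMEF was lost without either ESC course, and that of miR-10b-5p without ESC course 1 (adjusted p = 0.0841).

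CIMEF minus DMEF gave 0 calls among the 5 by edgeR, as among all 812 miRNAs (0%). 2 of the 5 had an unadjusted p under 0.05, and DESeq2 called 2 of the 5 and 110 of all. These were miR-10b-5p, with an edgeR log2 difference of 2.24 (SE 0.65, adjusted p = 0.152; 0.0116 with DESeq2), and miR-196b-5p, with 1.06 (SE 0.32, adjusted p = 0.166; 0.0138 with DESeq2). A p above the threshold does not show that the fibroblast lines were alike in these miRNAs.

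The courses of a line are labelled as replicates, and the members differed in how well those replicates matched. Among miRNAs of at least 10 CPM in a DMEF course, compared as log2(CPM + 1), 0.955% differed by over 10-fold between the courses, 4 of 419. 3 of these 4 were members: miR-615-3p ranked 1, miR-10a-5p 2 and miR-196a-5p 4. Course 1 over course 2 was 82.7-fold for miR-615-3p (95% counting interval 37.9 to 225.7), 57.9-fold for miR-10a-5p (33.1 to 112.2) and 17.2-fold for miR-196a-5p (12.3 to 24.7). In the same libraries, where 14.6% of miRNAs differed by over 2-fold, the HoxA and HoxD products differed less than these 3. The ratio was 1.16-fold (1.14 to 1.17) for miR-196b-5p, rank 295, and 1.88-fold (1.77 to 2.00) for miR-10b-5p, rank 74. These intervals cover counting error only.

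In CIMEF the counts were lower and the division was clear for miR-10a-5p and miR-615-3p. miR-10a-5p was 27.9-fold (15.5 to 56.3) higher in course 1 than in course 2, rank 68 of 410, in a line where 16.1% of miRNAs differed by over 10-fold. miR-615-3p gave 269 counts against 1, a ratio of 174 (95% counting interval 31.0 to 6904). miR-196a-5p was 2.27-fold (1.84 to 2.81) higher in course 1, with libraries that overlapped, and miR-196b-5p and miR-10b-5p differed by 1.09-fold and 1.33-fold. In ESC the sign was not shared: course 1 was 3.00-fold higher for miR-10a-5p, while course 2 was higher by 2.57-fold for miR-196a-5p, 3.11-fold for miR-615-3p and 2.42-fold for miR-10b-5p. Of 476 miRNAs in ESC, 0.21% differed by over 10-fold and 6.51% by over 2-fold, and the members miR-615-3p, miR-10a-5p, miR-196a-5p and miR-10b-5p ranked 6, 7, 10 and 15. Whether the courses came from separate isolates of cells is not given in the labels, and p-values measure the spread between these courses.

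The miR-196 pair was made up of different paralogs in fibroblasts and stem cells, whereas miR-10b-5p was the majority of the miR-10 pair in Input in every course. miR-196a-5p made up 96.5% (95% exact binomial interval 96.0 to 96.9) and 98.2% (98.0 to 98.4) of Input miR-196 counts in the ESC courses. In the CIMEF courses its share was 0.217% (0.196 to 0.239) and 0.104% (0.0862 to 0.125), and in DMEF 2.77% (2.67 to 2.88) and 0.192% (0.134 to 0.267). miR-10a-5p made up 27.4% and 4.95% of miR-10 counts in ESC, 24.9% and 1.07% in DMEF, and 1.21% and 0.0583% in CIMEF. In CIMEF course 2, reads of miR-196b-5p or miR-10b-5p miscounted as the paralog that differs at 1 base cannot exceed the shares of 0.104% and 0.0583%. These shares set no bound on the reverse miscounting. Reads of miR-196a-5p counted as miR-196b-5p in ESC are bounded only by its 217 and 275 counts there, and their part in those counts was not tested. The other strands of the miR-196a hairpins differ in sequence, and the Mir196a-1 strand of HoxB made up 76.1% (67.0 to 83.8) and 81.2% (75.4 to 86.1) of both in ESC and 62.2% (44.8 to 77.5) in DMEF course 1. Whether the strands were kept or ligated alike was not tested, so these are shares of strands and not of hairpins.

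In the knockout, miR-10a-5p and miR-196a-5p were above every wild-type fibroblast library, and the HoxA and HoxD products were near the wild type. Input miR-10a-5p at 2, 4, 8, 24 and 72 h and 1 week was 531.3, 467.1, 448.3, 403.7, 439.6 and 393.2 CPM. miR-196a-5p was 498.2, 536.6, 596.1, 526.7, 476.5 and 619.1 CPM at those times. As shares of miRNA counts, all of these lie above each of the 15 wild-type CIMEF libraries, whose highest values were 14.8 and 12.4 CPM. The share of all miRNAs that separated in this way was not counted, so how unusual it is cannot be said. Summed over libraries, miR-10a-5p stood 43.1-fold (39.4 to 47.3) above CIMEF course 1 and 1203-fold (672 to 2411) above course 2, and miR-196a-5p 60.8-fold (55.1 to 67.3) and 138-fold (115 to 167).

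The other strands of these hairpins moved alike. miR-10a-3p had 560 Input counts in the knockout, 7 in CIMEF course 1 and 0 in course 2, and miR-196a-1-3p had 182, 2 and 0. The Mir196a-1 strand made up 82.7% (77.1 to 87.5) of the miR-196a other strands. miR-615-3p ran from 9.83 to 16.8 CPM up to 72 h and was 32.5 at 1 week, so it was 2.62-fold (2.27 to 3.04) above CIMEF course 1 and below DMEF course 1. miR-10b-5p was 1326, 1171, 1125, 1057, 1180 and 784 CPM, which is 1.31-fold and 1.74-fold the CIMEF courses, with overlap of the libraries of course 1. miR-196b-5p was 5972, 5766, 6210, 5844, 4527 and 2899 CPM, 1.29-fold and 1.41-fold the CIMEF courses, and its 1 week library lay below all of theirs.

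Counted as 1 sample against 2 CIMEF courses, the knockout gave 0 calls among the members by edgeR, beside 0.862% of all 812 miRNAs. 2 of the 5 had an unadjusted p under 0.05: miR-196a-5p (log2 difference 6.52, SE 1.68, adjusted p = 0.218) and miR-10a-5p (6.51, SE 2.57, adjusted p = 0.443). DESeq2 called miR-196a-5p (adjusted p = 0.00276). With each library taken as a sample, 4 of the 5 were called, and 244 of the 550 miRNAs tested. Among the 4 were miR-10a-5p (6.43, edgeR adjusted p = 7.1e-04) and miR-196a-5p (6.38, edgeR adjusted p = 1.7e-05), but those libraries all come from 1 knockout culture. The part of Cyrano in the difference was not tested, and the wild-type DMEF courses differed from each other in the same miRNAs.

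Newly made miRNA was compared from the 2 h and 4 h EU libraries, summed per course, over 502 miRNAs tested. In ESC minus CIMEF, 3 of 5 members were called against 49% of all (19.9% higher, 29.1% lower): miR-196b-5p at -8.51 (SE 0.64, edgeR adjusted p = 1.2e-04), miR-10b-5p at -2.87 (SE 0.61, edgeR adjusted p = 0.00734) and miR-196a-5p at 6.98 (SE 1.42, edgeR adjusted p = 0.00601). In ESC minus DMEF, 2 of 5 were called against 38.8% (14.5% higher, 24.3% lower): miR-196b-5p at -8.18 (SE 0.63, edgeR adjusted p = 1.3e-04) and miR-196a-5p at 3.67 (SE 1.18, edgeR adjusted p = 0.0461). The last call was lost without either ESC course or without DMEF course 2 (adjusted p = 0.116 to 0.234), and with 1 h added (adjusted p = 0.0599). Members called in both EU and Input differed in the same direction in both. The unlabelled 0 h EU library of CIMEF course 1 held 18 counts of miR-10b-5p and 78 of miR-196b-5p, or 0.0753 and 0.326 per 1000 standard counts, beside 0.256 and 2.39 at 2 h, and this level was not subtracted here. ESC counts were small, with 3 miR-196b-5p reads at 2 h and 4 h in course 2 and 0 in course 1.

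CIMEF minus DMEF gave 0 member calls in new miRNA by edgeR, beside 3.19% of all miRNAs. 2 of the 5 had an unadjusted p under 0.05, miR-10b-5p (1.84, SE 0.56, adjusted p = 0.147) and miR-196a-5p (-3.31, SE 1.25, adjusted p = 0.206), and DESeq2 called 1. Without CIMEF course 1, which leaves 1 CIMEF course, the log2 difference was 1.94 for miR-10b-5p and -6.68 for miR-10a-5p. In the knockout the EU counts carried the excess seen in Input. miR-196a-5p had 133, 301, 494, 593, 532 and 727 EU counts at the 6 times and miR-10a-5p 139, 300, 457, 429, 286 and 293. Over their courses, CIMEF EU libraries held 31 and 43 counts of miR-196a-5p and 26 and 1 of miR-10a-5p. The edgeR test of the knockout as 1 sample called 0 of 5 (0% of all), with 3 of 5 under an unadjusted p of 0.05 and 1 called by DESeq2. With 1 CIMEF course left out, 1 knockout course stands against 1 CIMEF course and the spread comes from the other lines. No call is therefore read from that fit.

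New molecules were then set against standing ones within each line, EU minus Input, over 675 miRNAs. This contrast depended on scaling: the median of all miRNAs in CIMEF was -1.14 with TMM scaling and -0.08 with RLE scaling, which are different estimates of how libraries compare in size, and in DMEF -0.34 and -0.03. Values are therefore given relative to that median. In CIMEF, 2 of 5 members were called, both lower, against 58.1% of all miRNAs (44% lower), but relative to the median miR-196b-5p stood at 0.53 (0.55 with RLE) and miR-10b-5p at -0.12 (-0.10 with RLE), so the guides lay above or at the centre and neither call is read as a decrease. In DMEF, 1 of 5 was called against 40.1% (26.4% lower). It was miR-10a-5p, at -1.32 before the median was subtracted (edgeR adjusted p = 0.0273, and 0.0884 with RLE). Relative to the median, which was not tested, it stood at -0.98. The call was kept only without the count filter among its 10 alternatives. miR-196b-5p stood at 0.84 relative to the median in DMEF (0.83 with RLE). ESC gave 0 member calls by edgeR or DESeq2 against 19.9% of all, with 1 of 5 under an unadjusted p of 0.05. The line-by-fraction difference was called for 1 member between CIMEF and DMEF, miR-196b-5p, against 11.4% of all (11.1% lower), and this call ended under every alternative run. Between ESC and DMEF it was called for 0 by edgeR and DESeq2 (3.85% of all), with 0 under an unadjusted p of 0.05.

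The other strand of the miR-10b hairpin was far above the median in both fibroblast lines. miR-10b-3p stood 3.66 above the median in CIMEF (3.71 with RLE; range over 10 settings 3.44 to 3.91) and 3.46 in DMEF (3.43; 3.04 to 3.97). Both were called on the difference before the median was subtracted, 2.52 in CIMEF and 3.12 in DMEF (edgeR adjusted p = 1.9e-06 and 6.5e-04). The DMEF call was lost without DMEF course 2 (adjusted p = 0.0816) and with 8 h in place of 2 h and 4 h (log2 difference -0.84, adjusted p = 0.839). The share of miR-10b-3p among reads of both strands does not depend on scaling. In the 2 h and 4 h EU libraries it was 5.65% (exact 95% interval 3.32 to 8.89; 17 of 301 reads) and 7.95% (6.46 to 9.66; 92 of 1157) in the CIMEF courses, 7.45% (3.05 to 14.7) and 6.35% (2.78 to 12.1) in DMEF and 4.54% (3.35 to 5.99) in the knockout. In Input it was 0.449%, 0.753%, 0.393%, 1.68% and 0.624%, so the EU interval lay above the Input interval in each of those 5 courses. How many other hairpins did so was not counted, so this is not read as a trait of miR-10b alone. By 24 h the EU share was 0% (0 of 148 reads, upper limit 2.46%), 1.31%, 1.92%, 0% and 0.611%.

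The miR-196b hairpin did not follow that pattern. Its other strand made up 0.806% (0.500 to 1.23) and 0.448% (0.326 to 0.601) of early EU reads in CIMEF, beside 0.874% and 0.889% in Input. In DMEF the early EU share was 0.352% and 0.165% beside 0.548% and 0.796%, and in the knockout 0.345% beside 0.492%. The early EU share was thus at or below the Input share in all 5 courses. At 24 h it was lower again in both CIMEF courses and the knockout, 0.375%, 0.170% and 0.0931%, although the intervals of the first overlap. miR-10b-3p holds 6 uridines to the 7 of its guide and miR-196b-3p holds 4 to the 10 of its guide, and the part of this difference in the shares was not tested. miR-10a-3p, countable in the knockout, had an early EU share of 7.77% (5.53 to 10.6), 2.05% at 24 h and 2.89% (2.66 to 3.14) in Input. miR-615-5p, in DMEF course 1, made up 12% (2.55 to 31.2; 3 of 25 reads) of early EU reads of its hairpin beside 0.969% (0.593 to 1.49) in Input. For both, as for miR-10b-3p, the early EU interval lay above the Input interval.

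**Figure D2:**
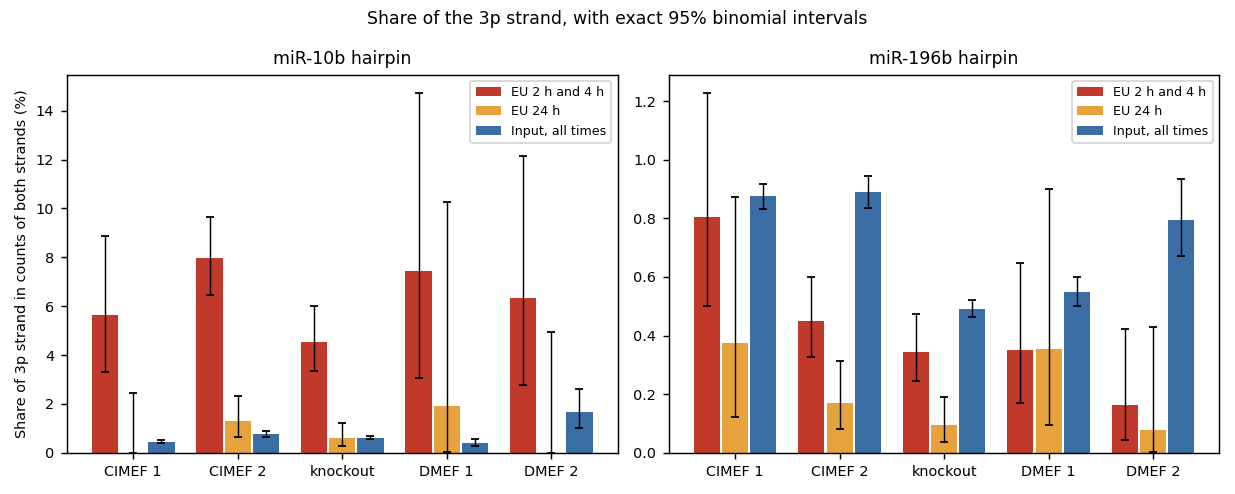
Share of the 3p strand in the counts of both strands of the miR-10b and miR-196b hairpins, in percent, for early EU libraries, the 24 h EU library and all Input libraries of each fibroblast course and the knockout; bars are pooled counts and whiskers exact 95% binomial intervals. The early share of miR-10b-3p is 4.54% to 7.95%, above Input in each course, and that of miR-196b-3p is at or below Input.

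Half-lives were read from the approach of labelled counts to a plateau, as 1 exponential with 1 rate. The fitted value was the number of EU counts for each count of the standards, from which a 0 h level was subtracted. The 0 h library exists in course 1 of each wild-type line, and its value for each standard count was also subtracted in course 2 of that line, and that of CIMEF in the knockout, although standards were counted at different levels there. In dividing cells such a half-life includes dilution by growth. In CIMEF course 1, miR-10b-5p per 1000 standard counts went from 0.0651 at 1 h to 0.256, 0.592, 1.13, 1.41, 3.86 and 5.66 at 2, 4, 8, 24 and 72 h and 1 week. The 0 h library stood at 0.0753, no lower than 1 h. The value was still rising at the end, with a fitted half-life of 33.0 h (19.8 to 59.8 from the assumed noise). In course 2 the half-life was 18.6 h (12.2 to 28.9). DMEF gave 4.89 h (2.53 to 9.09) and 2.16 h (1.28 to 3.49). All 4 values lay above the median of their course, at percentiles 77.0 and 69.4 in CIMEF and 67.0 and 76.4 in DMEF.

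miR-196b-5p turned over near the middle of its course. Its half-life was 17.0 h (11.4 to 25.8) and 8.76 h (5.88 to 13.0) in CIMEF, at percentiles 49.3 and 37.4, and 3.70 h (2.43 to 5.63) and 1.84 h (1.19 to 2.74) in DMEF, at 51.1 and 62.4. Within each of these 4 courses miR-10b-5p had the longer fitted half-life, by intervals that overlap. The model has no decline after the plateau. In DMEF, miR-196b-5p per 1000 standard counts fell from 8 to 24 h, from 23.6 to 17.8 in course 1 and from 4407 to 1307 in course 2. In course 2 miR-10b-5p fell from 171.3 to 73.4. The DMEF half-lives of these series therefore describe the early rise, and the comparison with CIMEF carries this limit. Half-lives of CIMEF and DMEF were compared with limma on the log2 scale, for the 2 members that could be fitted in both courses of each line. 1 was called longer, against 56.6% of 281 miRNAs: miR-10b-5p, by 2.93 (SE 1.05, limma adjusted p = 0.0169). miR-196b-5p was at 2.22 (SE 1.05, limma adjusted p = 0.0559), and the median over all miRNAs was 2.75. The call of miR-10b-5p was lost when any 1 of the CIMEF or DMEF courses was left out (adjusted p = 0.0753 to 0.238), and miR-196b-5p was called without either ESC course (adjusted p = 0.0257).

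The other members could be fitted in few courses. miR-196a-5p gave 5.74 h (2.74 to 11.3) in DMEF course 1 and 2.64 h (1.28 to 5.08) in ESC course 2, where miR-10b-5p gave 2.08 h with its lower limit at the end of the grid. miR-10a-5p gave 2.97 h and miR-615-3p 2.25 h in DMEF course 1, each with a lower limit at the end of the grid. The ESC values come from course 2 alone, and that of miR-196a-5p in DMEF from course 1 alone, so ESC minus DMEF set 1 course against 1 or 2. It gave 0 member calls by limma, of 2 tested, against 1.94% of 155 miRNAs, with 0 under an unadjusted p of 0.05.

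In the knockout the paralogs of the miR-196 family parted over the labelling time. EU miR-196b-5p per 1000 standard counts was 8970, 19990, 39470, 24620, 19060 and 17690, with its peak at 8 h. Both DMEF courses also had their highest value of miR-196b-5p at 8 h, 23.6 in course 1, then 17.8 and 22.1 at 24 and 72 h, and 4407 in course 2, then 1307 and 1976. A highest value at 8 h was not particular to miR-196b-5p. miR-10b-5p had it in the knockout (4347, then 4269 at 24 h) and DMEF course 2 (171.3, then 73.4), and miR-10a-5p in the knockout (1888, then 1407). In DMEF course 1 miR-10b-5p was highest at 72 h (1.06). The part of the 8 h libraries and their standards in this was not tested. In the knockout, EU miR-196a-5p was 333.3, 813.5, 2041, 1944, 2323 and 3909, with its highest value at 1 week. Their ratio needs no standard: miR-196a-5p made up 3.58% (exact 95% interval 3.01 to 4.23) of miR-196 EU reads at 2 h, then 3.91%, 4.92%, 7.32% and 10.9%, and 18.1% (16.9 to 19.3) at 1 week. In Input it was 7.70% (7.46 to 7.94) at 2 h, 8.27% at 24 h, 9.52% at 72 h and 17.6% (17.1 to 18.1) at 1 week. The standing pool thus moved at the last time, and early labelled reads held a smaller share of miR-196a-5p than the pool. In DMEF course 1 the share in EU reads was 1.25% to 1.80% from 1 to 8 h, 2.50% at 24 h and 2.86% (2.19 to 3.65) at 72 h, beside 2.63% to 3.52% in Input. DMEF course 2, with at most 7 miR-196a-5p counts in an EU library, had 0.0945% at 1 h and 0.0677% at 72 h. CIMEF course 1, with at most 12, had 0.117% at 2 h and 0.0955% at 1 week, and course 2, with at most 23, had 0.0953% at 1 h and 0.199% at 1 week.

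The miR-10 pair did not part in this way. miR-10a-5p made up 31.7% (27.3 to 36.2) of knockout miR-10 EU reads at 2 h and 24.8% (22.8 to 26.9) at 24 h. It made up 23.5% (21.2 to 26.0) at 72 h and 30.3% (27.4 to 33.3) at 1 week, beside 27.1% to 33.4% in Input. The EU share was thus lower at 24 and 72 h than at 2 h, and higher again at 1 week. Fitted half-lives in the knockout were 8.76 h (5.63 to 13.6) for miR-196a-5p, 4.93 h (3.24 to 7.50) for miR-10b-5p, 3.78 h (2.38 to 5.75) for miR-10a-5p and 2.08 h (1.17 to 3.24) for miR-196b-5p, beside a course median of 4.42 h. The model has no decline after the plateau, so the value of miR-196b-5p, which fell after 8 h, describes its early rise. Knockout minus CIMEF gave 0 member calls by limma, of 2 tested, as among all 242 miRNAs (0%). miR-10b-5p was at -2.33 (adjusted p = 0.24) and miR-196b-5p at -2.55 (adjusted p = 0.229, unadjusted p = 0.0422).

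**Figure D3:**
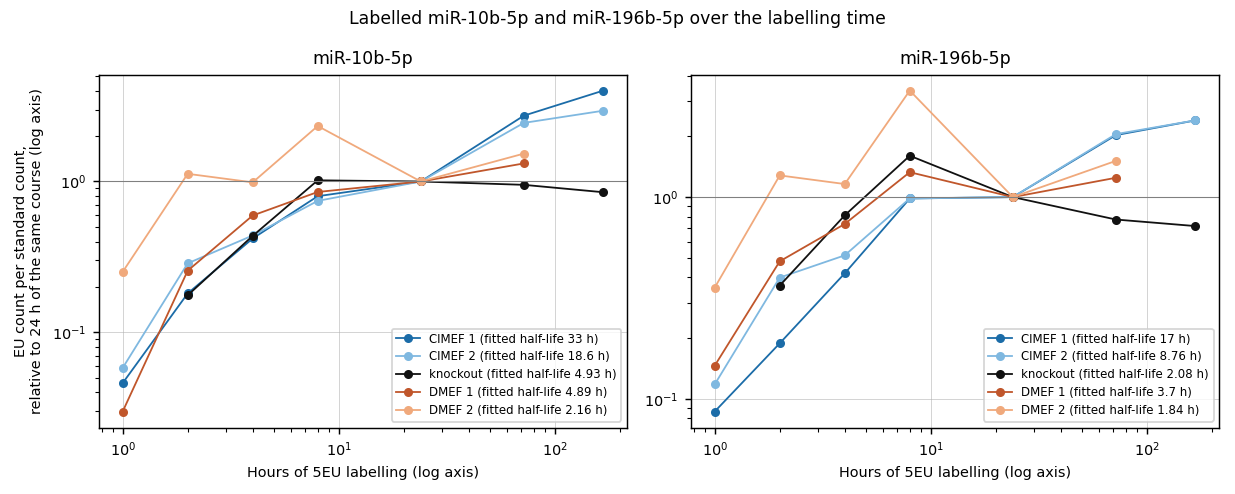
EU count per standard count relative to the 24 h library of the same course, on log axes, against hours of labelling, for miR-10b-5p and miR-196b-5p in the fibroblast courses and the knockout; lines join libraries, with no error bars because each point is 1 library. Both CIMEF courses rise to 1 week, whereas miR-196b-5p peaks at 8 h in the knockout and in both DMEF courses. miR-10b-5p is also highest at 8 h in the knockout and in DMEF course 2, but at 72 h in DMEF course 1.

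Input levels were also tested for drift over the labelling. The slope of log2 level on log2(hours + 1) was called for 0 of 5 members by edgeR and by DESeq2 in CIMEF, DMEF and ESC, where 26%, 22.1% and 4.15% of miRNAs were called. 2, 0 and 0 of the 5 had an unadjusted p under 0.05. The 2 were miR-615-3p, at -0.16 per unit (SE 0.06, adjusted p = 0.0637), and miR-10a-5p, at -0.14 (SE 0.06, adjusted p = 0.0731). Both were called on a scale of linear hours (adjusted p = 0.00158 and 0.00439), and in CIMEF course 1 the 1 week library was the lowest for each, 2.08 and 3.51 CPM. miR-10b-3p was called higher over time in CIMEF, at 0.09 (SE 0.03, edgeR adjusted p = 0.031), a call that was lost without either CIMEF course, without the last time, without the count filter and with DESeq2. The slopes differed between CIMEF and DMEF for 0 of 5 members by edgeR and by DESeq2 (6.46% of miRNAs, 1 of 5 under an unadjusted p of 0.05).

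The mRNA libraries, 2 per wild-type line, gave the levels of the Hox genes around the hairpins. HoxA and HoxD genes were high in fibroblasts and low in ESC, and HoxB and HoxC genes were low in all lines. Summed HoxA genes gave 256.5 and 294 CPM in the CIMEF libraries, 172.2 and 185.2 in those of DMEF, and 15.9 and 18.2 in those of ESC. In that order, HoxD genes gave 485.8 and 503 CPM, 436.1 and 427.6, and 8.44 and 10.2. HoxB genes gave 1.79 and 0.217 CPM, 10.6 and 9.12, and 8.05 and 8.20, and HoxC genes 2.77 and 0.130, 9.77 and 7.80, and 8.13 and 8.59. CIMEF library 2 held 5 HoxB and 3 HoxC counts beside 48 and 74 in library 1. Its small-RNA namesake, course 2, was also the lower for miR-10a-5p and miR-615-3p, whereas the DMEF mRNA libraries did not part as the DMEF courses did, and a shared number is not stated to mean a shared culture.

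**Figure D4:**
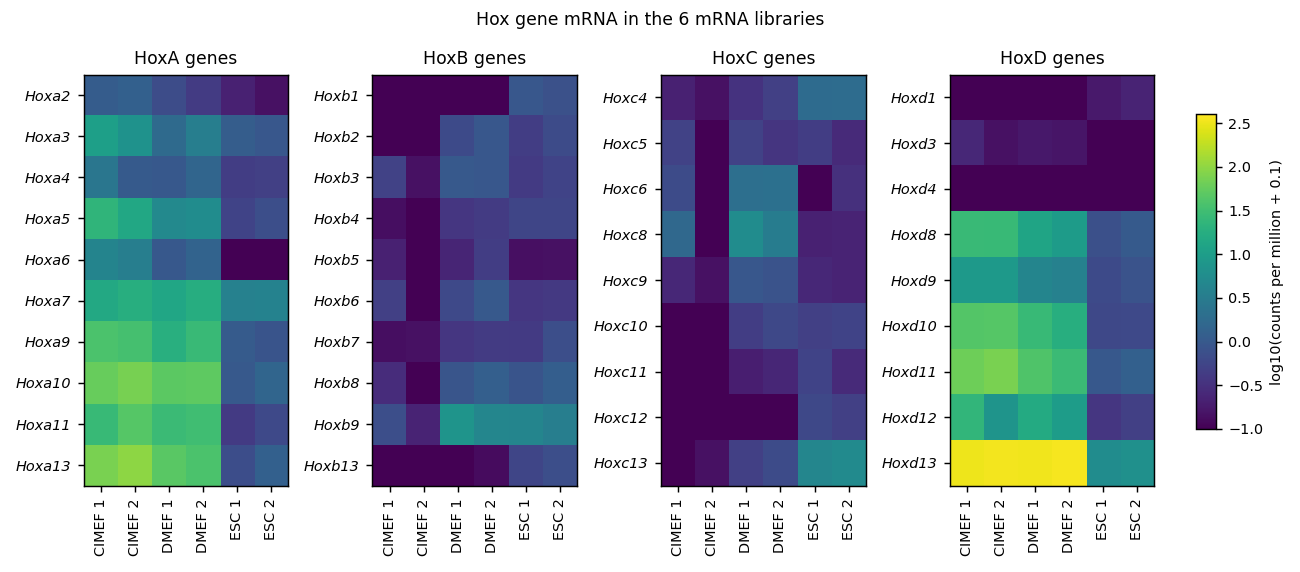
mRNA level of 38 of the 39 Hox genes by cluster in the 6 libraries, as log10(CPM + 0.1); genes are ordered by paralog number, and colours compare libraries within a gene, since levels are not per length. Most HoxA and HoxD genes are high in fibroblasts, and HoxB and HoxC genes are low throughout and lowest in CIMEF library 2.

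Of 39 Hox genes, 33 could be tested. In ESC minus CIMEF, 27 were called, 11 higher and 16 lower, where edgeR called 75.9% of 18094 genes (38.2% higher, 37.7% lower), and the median over all genes was 0.06. HoxA gave 10 lower and 1 higher of 11 (median log2 difference -5.28) and HoxD 6 lower of 6 (median -5.83). HoxB gave 6 higher of 8 (median 3.04) and HoxC 4 higher of 8 (median 1.54), with genes at 0 in CIMEF entered at the bound that 3 counts over both libraries allow. In ESC minus DMEF, 24 Hox genes were called, 5 higher and 19 lower, against 60.8% of all genes (30.3% higher, 30.5% lower). CIMEF minus DMEF called 18, 8 higher and 10 lower, against 40.6% (19.5% higher, 21.1% lower): 4 HoxA and 4 HoxD genes were higher in CIMEF, and 5 HoxB, 4 HoxC and 1 HoxA gene were lower. Without DMEF library 1 the 18 fell to 10, and without library 2 to 8. Counting by strand is not stated, so overlapping and antisense transcripts of these clusters cannot be told apart from the genes named.

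The genes beside each hairpin were then read one hairpin at a time. Hoxa9 and Hoxa10, around Mir196b, are transcription factors of the limb and trunk. For Hoxa10 the CIMEF libraries gave 1573 and 1650 counts, those of DMEF 1423 and 1761, and those of ESC 24 and 33, with a log2 difference of ESC minus CIMEF of -5.97 (SE 0.25, edgeR adjusted p = 3.9e-06), and Hoxa9 gave -5.54. Hoxd8, the nearest tested gene to Mir10b, had 735 and 613, 361 and 319, and 17 and 22 counts (-5.25 in ESC minus CIMEF, and 1.13 in CIMEF minus DMEF, edgeR adjusted p = 0.0118). Hoxd3 and Hoxd4, whose spans hold Mir10b, had 4, 1, 2, 2, 0 and 0 counts and 0 counts in all 6 libraries. A high miR-10b-5p was thus seen beside nearly no counts assigned to these genes. How reads within both spans were counted was not tested, so these counts do not show that the region lacked reads.

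Beside Mir196a-1, Hoxb9 gave 17 and 3 counts in the CIMEF libraries, 208 and 149 in those of DMEF, and 109 and 78 in those of ESC, with -4.05 in CIMEF minus DMEF (SE 0.65, edgeR adjusted p = 0.00434), and Hoxb13 had at most 1 count in fibroblasts and 12 and 15 in ESC. Hoxc10, beside Mir196a-2, had 0 and 0, 10 and 17, and 10 and 10 counts, and Hoxc9 had 4 and 1, 25 and 25, and 4 and 3. Hoxb3, Hoxb4 and Hoxb5, around Mir10a, had 11 and 1, 1 and 0, and 3 and 0 counts in CIMEF. In DMEF they had 27 and 29, 8 and 11, and 4 and 12, and in ESC 8 and 10, 12 and 11, and 1 and 1. Around Mir615, Hoxc6 had 15 and 0, 57 and 69, and 0 and 5 counts, Hoxc5 had 11 and 0, 12 and 9, and 9 and 4, and Hoxc4 had 3 and 1, 7 and 13, and 45 and 42. Of the 15 flanking genes, 12 were tested, and 5 were higher and 3 lower in ESC minus CIMEF, where 75.9% of all genes were called. In CIMEF minus DMEF 1 was higher and 6 were lower, where 40.6% were called.

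Among Hox mRNAs described as targets, direction did not follow the level of the miRNA in a single way. For miR-196, Hoxc8 gave 41 and 0 counts in the CIMEF libraries, 159 and 109 in those of DMEF, and 3 and 3 in those of ESC, and Hoxb8 had 5 and 0, 23 and 38, and 20 and 25. Hoxa7 had 391 and 418, 393 and 599, and 96 and 89 counts, and Hoxd8 was high in fibroblasts as given above, so both were abundant where miR-196b-5p was. Hoxb7 had 1 and 1, 8 and 11, and 8 and 15 counts and was not tested. Of 4 such Hox genes tested for miR-10, 2 were higher and 2 lower in CIMEF minus DMEF, where 40.6% of all genes were called. Hoxa3 gave 283 and 155 counts in the CIMEF libraries, 48 and 115 in those of DMEF, and 27 and 20 in those of ESC. Hoxa3 and Hoxd10 were higher in CIMEF than in DMEF, at 1.61 (edgeR adjusted p = 0.0225) and 0.77 (edgeR adjusted p = 0.0378), and Hoxb3 was lower, at -2.07 (edgeR adjusted p = 0.0496).

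Other described targets were also mixed, in a comparison that called 75.9% of all genes (38.2% higher, 37.7% lower). Of 10 for miR-10, 2 were higher and 7 lower in ESC minus CIMEF (median -0.75): Tfap2c (10.17) and Klf4 (2.45), both transcription factors, were higher, and Bcl2l11, a promoter of cell death, was lower (-2.91). The 3 for miR-196 were all lower in ESC, at -5.35 for Anxa1, a phospholipid-binding protein, -2.54 for Cdkn1b, an inhibitor of the cell cycle, and -0.99 for Bach1, a transcription factor. Polycomb and trithorax genes, which keep Hox clusters silent or active, gave 7 higher and 7 lower of 16 in ESC minus CIMEF (median -0.02), with Cbx7 at 3.65 and Bmi1 at -3.16. Of 9 Hox cofactors, 6 were lower and 0 higher there (median -2.64), with Meis3 at -3.30 and Meis1 at -3.26.

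Likeness to other miRNAs was measured as Pearson's r of log2(CPM + 1) over the 47 Input libraries, among 572 miRNAs. These libraries share courses and lines, so r is a description. miR-196b-5p was most like miR-199ab-3p, let-7i-5p and miR-214-3p, each at 0.997, and miR-10b-5p was most like miR-351-5p (0.937), miR-322-3p (0.919) and miR-26a-5p (0.916). miR-10a-5p was most like miR-10a-3p (0.859), miR-615-3p (0.736) and miR-196a-5p (0.733). miR-615-3p was most like miR-196a-5p (0.801), miR-10a-5p (0.736) and miR-219a-1-3p (0.645), and miR-196a-5p was most like miR-672-5p (0.908), miR-672-3p (0.884) and miR-205-5p (0.829). The lists of miR-10a-5p and miR-615-3p thus held each other and miR-196a-5p, whereas that of miR-196a-5p held no member. Between miR-196a-5p and its own paralog r was -0.623, and between miR-10a-5p and its own 0.137.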

How the data were processed

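Small RNA was sequenced from Input and EU libraries and mRNA from 6 libraries, and the authors deposited raw counts, not normalized, for each mature miRNA and each gene. The tools named in the submitters' processing notes are cutadapt for all samples and, for most, STAR 2.4 and HTSeq 0.9.1. Removal of duplicate reads is not given in the sources used here. All 100 columns were mapped from 105 samples, of which 5 EU samples of DMEF course 2 are second runs that share a column with the first. Depth is given in the report, and intervals and floors (3 counts for 0) cover counting error only.

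CPM is the count over the unscaled miRNA total, times 1000000. Tests used edgeR 4.0.16 (TMM, filterByExpr, quasi-likelihood), with DESeq2 1.42.0 beside it, on counts summed per course, so each course is 1 replicate and all lines share 1 dispersion fit. limma 3.58.1 was used for log2 half-lives (R 4.3.3). All tests are two-sided, with Benjamini-Hochberg adjustment over all features and a threshold of 0.05. Half-lives came from 400 grid points over EU counts per standard count, with at least 10 counts at 4 or more times and a noise of 0.2. The fits were tested on simulated data, where the Input test of ESC minus DMEF missed most of the smaller changes, so a low count of calls is no sign of equal levels.

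The miRNAs, gene lists and naming rules were chosen with earlier results of these data known: all members, other strands, flanking and target Hox genes are named, and of other lists the 3 with the largest change past the threshold, except for some genes that are not reported here. Alternatives were the scaling, the count filter, the tool, the times used, the half-life noise and background, a replicate block, and leaving out each course. Of 54532 gene IDs, 54409 had a symbol.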

Additional observations from a re-analysis of the deposited data

Results flagged for a closer look

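The EU-minus-Input difference of miR-196b-5p was lower in CIMEF than in DMEF by a log2 difference of -1.11 (edgeR interaction, adjusted p = 0.0257; 2 courses per line), which marked it as an effect that differs between lines. The median of all 675 miRNAs in this interaction was -0.60, and miR-196b-5p stood at -0.51 relative to it. With RLE scaling the difference was -0.33 (adjusted p = 0.826) and the median 0.08. No group held 4 or more samples, so outlying samples were not tested.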

How the results depend on the processing

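Counts are of members called, out of 5, unless said otherwise, and the cause of each change was not tested. DESeq2 gave 2 in place of 0 for Input CIMEF minus DMEF, 2 in place of 1 for Input ESC minus DMEF, and 1 in place of 0 for Input knockout minus CIMEF, new CIMEF minus DMEF and new knockout minus CIMEF. Taken library by library, the knockout gave 4 in Input, where 244 of 550 miRNAs were called, and 2 in new miRNA, where 124 of 419 were called. Scaling to the standards gave 0 for Input ESC minus DMEF and ESC minus CIMEF. There miR-196a-1-3p turned to -3.94 against DMEF and -0.66 against CIMEF, miR-196a-5p to -2.18 and miR-615-5p to -2.80 against CIMEF. Standards differed widely between the courses of a line. Without the count filter, new CIMEF minus DMEF gave 1 and new knockout minus CIMEF 2. New ESC minus DMEF gave 1 in place of 2 with 1 h added, losing miR-196a-5p. Linear hours gave 2 in place of 0 for CIMEF drift.

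For new minus standing, CIMEF fell from 2 to 0 with 8 h, DESeq2, RLE or no filter, and DMEF went from 1 to 2 with 8 h and 0 with DESeq2. ESC went from 0 to 2 with 8 h, 1 with RLE and 3 without the filter. The CIMEF to DMEF interaction fell from 1 to 0 with 8 h, DESeq2, RLE or no filter, and the ESC to DMEF interaction rose from 0 to 1 with 8 h or no filter. Before the median is subtracted, miR-196b-5p in CIMEF turned from -0.61 to 0.69 with 8 h, 0.47 with DESeq2, 0.47 with RLE and 0.035 without the filter, and to 0.87, 0.44, 0.14 and 0.14 without CIMEF 1, DMEF 1, ESC 1 and ESC 2. In the same contrast miR-10b-5p turned to 0.26 without CIMEF 1, and miR-10b-3p in DMEF to -0.84 with 8 h. miR-196a-5p in ESC turned to -1.39 without the filter and to -1.28 without CIMEF 1 or DMEF 1. The miR-196b-5p interaction turned to 0.15 without CIMEF 1. In the ESC to DMEF interaction, miR-10b-5p turned to -1.56 without the filter, -1.75 without CIMEF 1 and -2.26 without DMEF 1, and miR-196a-5p to -1.67 with 8 h. Over all left-out courses these values ran from -1.26 to 0.26 (miR-10b-5p, CIMEF), -0.61 to 0.87 (miR-196b-5p, CIMEF), -1.28 to 0.405 (miR-196a-5p, ESC), -1.17 to 0.15 (miR-196b-5p interaction) and -2.26 to 0.67 (miR-10b-5p interaction). A further 183 values that passed no test in either setting changed sign or moved.

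Leaving out 1 course gave 1 to 2 for Input ESC minus DMEF, 1 to 4 for ESC minus CIMEF, 0 to 2 for new CIMEF minus DMEF and new knockout minus CIMEF, 1 to 2 for new ESC minus DMEF, 0 to 1 for new minus standing in CIMEF and DMEF, 0 to 3 in ESC, 0 for its CIMEF to DMEF interaction and 0 to 2 for the ESC to DMEF interaction, and 0 to 2 for CIMEF minus DMEF half-lives. Hox genes called ranged over 8 to 22 (CIMEF minus DMEF), 17 to 27 (ESC minus DMEF) and 26 to 32 (ESC minus CIMEF). Where this leaves 1 course in a line, that course is assumed to vary like the others.

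Courses share replicate numbers, 2 per line, and no label says that a number marks a shared batch. Deviations of same-numbered samples correlated at 0.101 to 0.215 in Input, 0.0288 to 0.275 in EU and -0.00506 to 0.0235 in mRNA. With a replicate block, new ESC minus DMEF gave 1, losing miR-196a-5p (4.31, adjusted p = 0.0749), and CIMEF minus DMEF half-lives 2, and the Hox genes called were 16, 24 and 27. The other member counts with a block were as without it.

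Over all miRNAs, calls in Input CIMEF minus DMEF were 0, but 110 with DESeq2, and 207 and 49 without CIMEF 1 and 2. Input knockout minus CIMEF gave 7, and 0 to 244 over the alternatives. New CIMEF minus DMEF gave 16, with 59 by DESeq2, 42 without the filter and 0 with the block. The new minus standing CIMEF to DMEF interaction gave 77, and 3 to 33 over the alternatives. Half-life calls of CIMEF minus DMEF were 159, and 0 to 24 without 1 fibroblast course. Depth limits the EU counts of ESC most, where miR-10b-5p had 14 counts in course 1 and miR-615-3p 3.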
